A study of Mus musculus with 8 samples.

Results

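The genes examined were those that build peroxisomes or work inside them: every gene whose symbol begins with Pex and a number (the peroxins, 17 genes), 20 enzymes of the peroxisomal matrix, and Abcd3, the fatty acyl-CoA transporter of the peroxisomal membrane. Together they made 38 of the 24421 gene symbols counted in mouse liver, and 37 had enough reads to be tested. Pex5l, a relative of the import receptor Pex5, was not, with 1 read over the 4 WT libraries and 5 over the 4 CAPZ_KO libraries. Capzb codes for the beta chain of the capping protein that closes the growing ends of actin filaments. The study sequenced poly(A) RNA from perfused livers of C57BL/6N mice aged 8 to 10 weeks, with 4 WT and 4 CAPZ_KO libraries. CAPZ_KO mice carried Albumin-CreERT2 and Capzb-fl/fl and were given 5 daily injections of tamoxifen from 4 to 6 weeks of age. The Albumin promoter is active in hepatocytes, so the recombinase is not aimed at the other cells of the liver. WT mice were either Capzb-fl/fl without Cre and injected, or Albumin-CreERT2;Capzb-fl/fl and not injected, with no label that assigns a library to either. An effect of tamoxifen or of Cre therefore cannot be told apart from that of the deletion where the controls lacked either.

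Peroxisomes are small organelles bounded by a single membrane that shorten very long and branched fatty acids, make the first steps of ether lipids, oxidise urate and glyoxylate precursors, and break down the hydrogen peroxide these reactions release. Their matrix proteins are made in the cytosol and imported folded: Pex5 and Pex7 carry them to a docking complex, ubiquitin ligases and ATPases of the membrane return the receptor, and Pex3, Pex16 and Pex19 place proteins in the membrane. Hepatocytes are rich in peroxisomes, and in rodents the nuclear receptor PPARA raises many of the fatty acid enzymes.

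The total count per library was 12060350 to 18916315 in WT and 13122355 to 16984971 in CAPZ_KO. Levels are given as CPM, the reads of a gene per fixed number of reads in its library after TMM scaling, a step that corrects each library for a few very abundant transcripts taking up reads. The factors lay between 0.774 and 0.847 for WT libraries and between 1.18 and 1.33 for CAPZ_KO libraries, so they set the zero of the comparison: without them the median log2 fold change of all 12985 tested genes moved from -0.003 to 0.62. Capzb itself stood at 140, 109, 118 and 114 CPM in the WT libraries and at 69.4, 79.6, 64.5 and 76.4 CPM in the CAPZ_KO libraries. Its log2 fold change was -0.73 ± 0.125 (SE; edgeR quasi-likelihood adjusted p = 0.00134) and the groups did not overlap (exact two-sided permutation p = 0.0286, the smallest that 4 against 4 allows). With library sizes alone the difference for Capzb was -0.10 (adjusted p = 0.442). The libraries numbered 4 in each group were female by Xist and the Y-linked genes, and the other 6 were male. Values per library are listed in the order of the library numbers, 1 to 4. Exons of Acaa1a, Acaa1b, Acot8, Gnpat, Hacl1, Pex3 and Pex13 overlap those of another counted gene on the opposite strand, and as no source used here gives the strand setting of the counting, reads of the partners cannot be told apart. Nothing in the labels says more about how the libraries of a group were related. The p-values thus set the difference between the groups against the spread between these libraries, estimated with help from all tested genes.

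Promoter sequences of 4 members are shown to illustrate CG content, the promoter feature compared here, in 1 member that was higher and 3 that were lower; they do not include the largest falls. They were chosen after the values were seen, from members whose window overlaps no annotated exon. Each is the 250 bases before the RefSeq start of the gene (GRCm38.p6, the mm10 assembly), 5′ to 3′ on the gene's strand, with CG pairs in capitals. Agps (chr2:75831927-75832176, plus strand) was the only member called higher in CAPZ_KO, Pex26 (chr6:121183417-121183666, plus strand) had 1 of the larger falls among the peroxins, and Phyh (chr2:4918746-4918995, plus strand) and Acaa1b (chr9:119157094-119157343, minus strand) were enzymes that fell by more than 2-fold.
Agps: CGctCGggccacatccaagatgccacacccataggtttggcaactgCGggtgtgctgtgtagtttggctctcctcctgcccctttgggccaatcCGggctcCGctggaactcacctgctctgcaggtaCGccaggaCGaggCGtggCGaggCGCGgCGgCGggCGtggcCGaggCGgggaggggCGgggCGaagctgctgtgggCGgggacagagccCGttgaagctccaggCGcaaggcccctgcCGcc
Pex26: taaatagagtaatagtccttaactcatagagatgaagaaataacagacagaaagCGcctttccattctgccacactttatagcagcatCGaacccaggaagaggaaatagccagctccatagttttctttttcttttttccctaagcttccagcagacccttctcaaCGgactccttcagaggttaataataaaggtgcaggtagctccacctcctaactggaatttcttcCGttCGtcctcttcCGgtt
Phyh: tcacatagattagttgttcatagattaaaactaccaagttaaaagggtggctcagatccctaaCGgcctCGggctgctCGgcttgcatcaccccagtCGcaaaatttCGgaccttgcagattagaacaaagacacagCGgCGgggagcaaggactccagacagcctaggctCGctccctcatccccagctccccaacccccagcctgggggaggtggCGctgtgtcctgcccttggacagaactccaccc
Acaa1b: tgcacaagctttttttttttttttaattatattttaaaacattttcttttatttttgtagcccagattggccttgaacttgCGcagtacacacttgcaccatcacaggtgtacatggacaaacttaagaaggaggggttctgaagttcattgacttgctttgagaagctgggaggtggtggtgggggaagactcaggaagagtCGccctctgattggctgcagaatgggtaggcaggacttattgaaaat
The Agps window held 22 CG pairs, that of Phyh 9, that of Pex26 6 and that of Acaa1b 2. A window was matched for 31 of the 38 members, and Pex2, Pex5l, Pex19 and Hsd17b4 were among those without one. The median was 13 CG pairs over the 11 peroxins (6 to 22) and 10 over the 19 enzymes (2 to 25), against 6 over 27025 genes. Those 27025 are all genes with a window, whether or not they were tested in liver, so they are an unlike set. Pex26 and Acaa1b were thus at the lowest value of their sets, so the contrast among the 4 windows shown does not stand for the members. Abcd3, whose windows held 34 and 35 CG pairs, was also lower, at a log2 fold change of -1.48. Across the 31 members the number of CG pairs and the log2 fold change had a Spearman rho of 0.39, and across the 19 enzymes 0.36, given as a description of genes measured in the same libraries. The element that PPARA binds with RXR, a direct repeat of AGGTCA with 1 base of any kind between the copies, was searched on both strands of the window and the 50 bases after the start, allowing 1 mismatch. It was found in 0 of the 36 windows of the 31 members and in 0.644% of the 27025 genes, which says only that these letters are not in this stretch of the members.

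After TMM scaling, transcripts of most peroxisome genes were less abundant in CAPZ_KO liver. Of the 37 tested members, 32 were lower, 1 was higher (Agps) and 4 did not pass the test (Pex19, Acox2, Acot4 and Crot) by the edgeR quasi-likelihood test at an adjusted p under 0.05. Over all tested genes 41.4% were called, 19.0% lower and 22.4% higher. The median log2 fold change of the members was -0.81, and 14 were at least 2-fold lower, as were 7.10% of all genes. In 30 members every CAPZ_KO library was below every WT library, as in 18.2% of all genes. Calls for 26 members were kept whichever library was left out. With library sizes alone in place of TMM, 10 members were lower and 4 higher (Agps, Pex19, Acox2 and Gnpat), while 5.39% of all genes were lower and 59.0% higher.

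**Figure D1:**
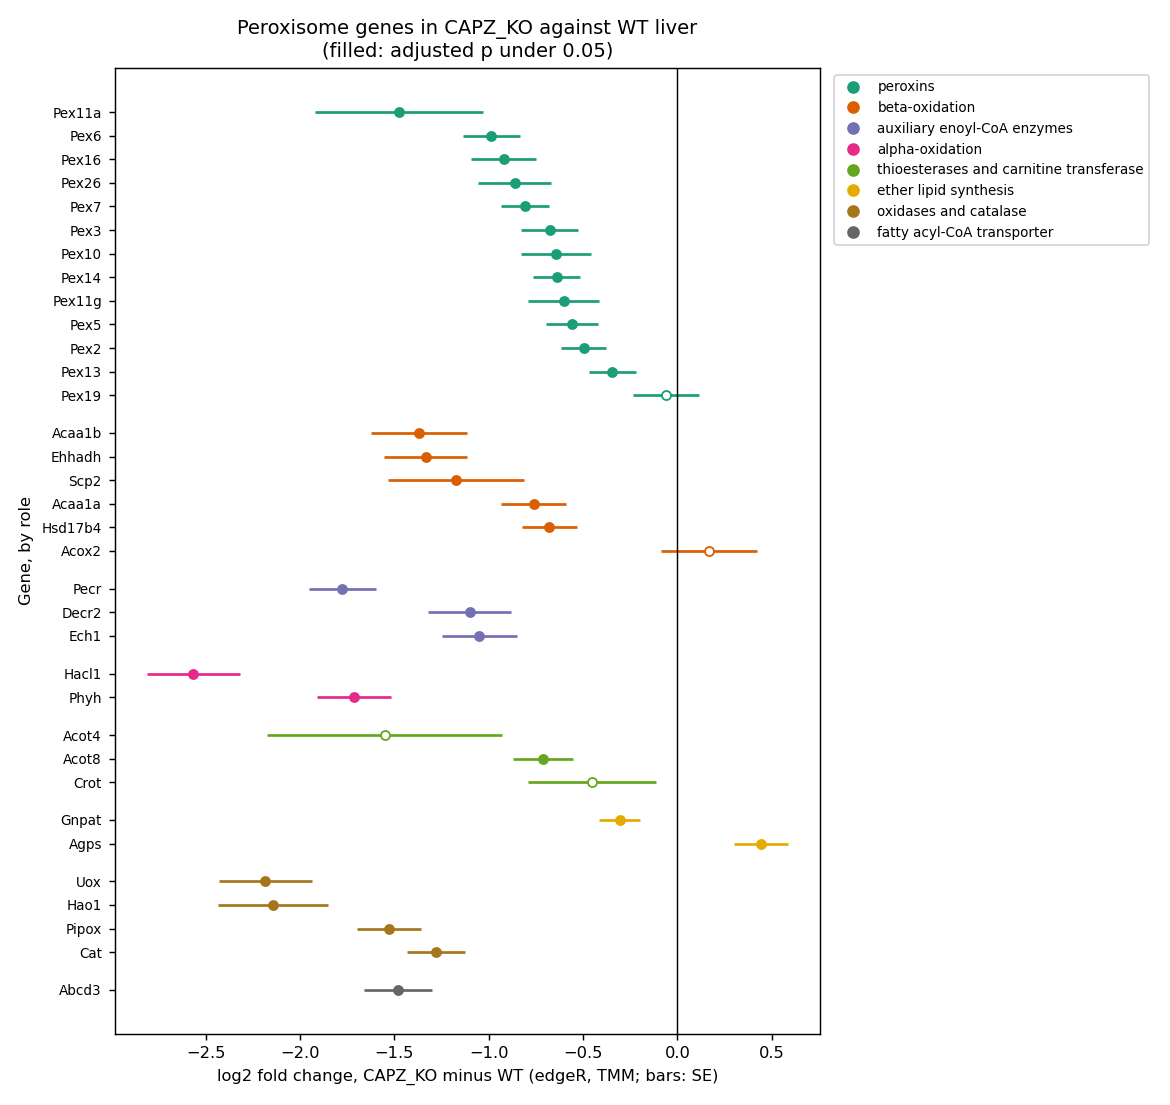
Log2 fold change (x axis, CAPZ_KO minus WT, edgeR after TMM) of 34 tested members, grouped by role on the y axis, with bars for the standard error and filled symbols for an adjusted p under 0.05. Peroxins lie between -1.48 and -0.06, and matrix enzymes reach from -2.57 to 0.44. With library sizes alone 5 of the 13 peroxins shown, Crot and Gnpat change sign, and the median of all tested genes is 0.62.

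Matrix enzymes and peroxins were then set side by side. Among 20 matrix enzymes 16 were lower and 1 higher, with a median log2 fold change of -1.23 and 12 at least 2-fold lower. The enzyme median was -0.59 with library sizes alone, with 9 lower and 3 higher. Among 16 tested peroxins 15 were lower, with a median of -0.64 and 1 at least 2-fold lower. With library sizes alone that median was -0.02, 0 peroxins were lower and 1 (Pex19) was higher. Over all tested genes that scaling gave a median of 0.62, with 5.39% lower and 59.0% higher. Of the 13 peroxins reported singly, Pex2, Pex5, Pex11g, Pex13 and Pex19 had log2 fold changes above 0 with that scaling, from 0.03 (Pex11g) to 0.55 (Pex19). The difference of the medians was -0.58, or -0.57 with library sizes alone, and lay between -0.70 and -0.40 over 20 alternative settings. Taken per library as the median log2(CPM + 1) relative to the WT mean, enzymes minus peroxins was 0.11, -0.03, 0.05 and -0.08 in the WT libraries and -0.49, -0.65, -0.43 and -0.58 in the CAPZ_KO libraries. All 4 CAPZ_KO libraries were thus below all WT libraries on this measure, which is a description with no test over the members. The WT values lie near 0 by construction, as each gene is set against its own WT mean. As a share of all counts the enzymes took 1.24% ± 0.155 in WT and 0.741% ± 0.0443 in CAPZ_KO (SD, n = 4 each). The share of the peroxins was 0.0831% ± 0.00817 in WT and 0.0853% ± 0.00653 in CAPZ_KO.

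**Figure D2:**
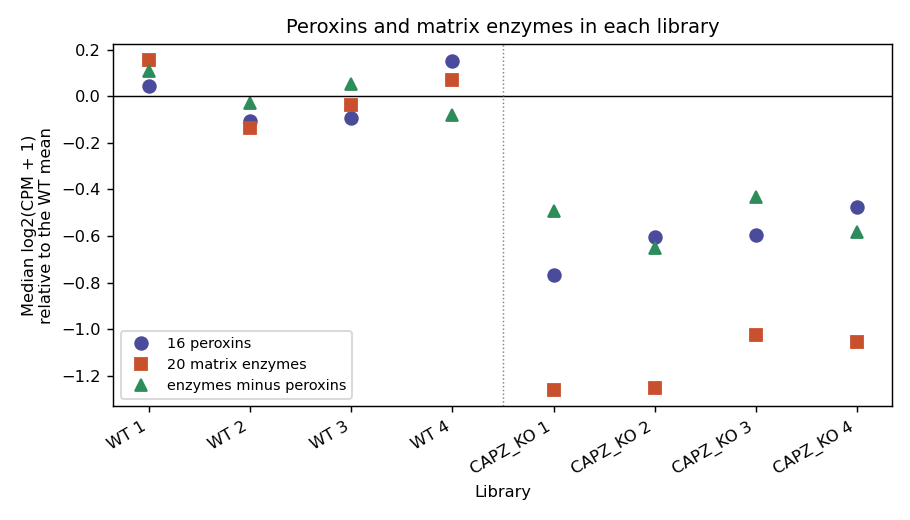
Median log2(CPM + 1) relative to the WT mean (y axis) for peroxins and for matrix enzymes in each of the 8 libraries (x axis). Each gene is set against its own WT mean, so the lists lie close together in the WT libraries by construction. In the CAPZ_KO libraries enzymes minus peroxins is -0.65 to -0.43. All values drawn are after TMM scaling. With library sizes alone, not drawn here, the median edgeR log2 fold change was -0.02 for the peroxins and 0.62 for all tested genes.

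The livers also differed in the markers of their cells. Of 13 tested hepatocyte markers 11 were lower and 0 higher, with a median log2 fold change of -1.42, and their summed level was 207061 to 259210 CPM in WT and 67199 to 95898 CPM in CAPZ_KO. Cholangiocyte markers were higher in 7 of 10 (summed 44.2 to 82.6 CPM in WT and 398 to 1154 CPM in CAPZ_KO) and stellate cell markers in 7 of 8 (327 to 393 and 708 to 894 CPM). Markers of monocyte-derived macrophages were higher in 7 of 8 (281 to 486 and 456 to 785 CPM). Those of Kupffer cells were higher in 3 of 7 (589 to 1520 and 1239 to 3653 CPM) and of endothelium in 2 of 7 (275 to 442 and 352 to 558 CPM). In each of these 2 lists only 1 marker had groups that did not overlap. Over all tested genes 22.4% were higher and 19.0% lower, so the endothelial markers, at 28.6% higher, were near that share. No lymphocyte marker of 8 was called (5.11 to 24.1 and 9.80 to 18.6 CPM), and no marker in these lists was at 0 in all 8 libraries. In whole liver, fewer cells of a type and less RNA per cell cannot be told apart, and the part of cell composition in the results on peroxisome genes was not tested.

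Among the import receptors, Pex5, which carries proteins with the common carboxy-terminal signal, fell from 140 ± 20.4 to 95.1 ± 9.38 CPM (SD, n = 4; log2 fold change -0.56 ± 0.138, edgeR adjusted p = 0.00907). Pex7, the receptor for the amino-terminal signal of Phyh, Agps and the thiolases, stood at 97.9, 91.3, 99.2 and 121 CPM in WT and at 53.5, 64.6, 53.5 and 62.2 CPM in CAPZ_KO. Every CAPZ_KO library was lower than every WT library, and the log2 fold change was -0.81 ± 0.129 (adjusted p = 0.000877). The docking proteins were lower too: Pex14 had a log2 fold change of -0.64 (adjusted p = 0.0028) and Pex13 of -0.35 (adjusted p = 0.0471). The call for Pex13 was lost when any library but CAPZ_KO 4 was left out (adjusted p up to 0.0967).

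Pex2 and Pex10 are ubiquitin ligases that mark the receptor for return, and their log2 fold changes were -0.50 and -0.64 (adjusted p = 0.00813 and 0.0185). Pex10 was the least abundant of the 13 tested peroxins reported singly, at 5.11 ± 0.713 CPM in WT and 3.27 ± 0.134 CPM in CAPZ_KO. The receptor is then pulled from the membrane by ATPases that include Pex6, which Pex26 anchors. Pex6 stood at 116, 80.6, 105 and 99.1 CPM in WT and 53.6, 51.8, 56.8 and 40.3 CPM in CAPZ_KO. It had the smallest p of the peroxins, with a log2 fold change of -0.99 ± 0.152 (adjusted p = 0.000722). Pex26 had a log2 fold change of -0.86 (adjusted p = 0.00555).

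The proteins that build the membrane did not move alike. Pex16, which brings membrane proteins in by way of the endoplasmic reticulum, stood at 101, 71.3, 74.4 and 93.2 CPM in WT and 35.1, 42.8, 45.2 and 56.2 CPM in CAPZ_KO. The groups were apart, with a log2 fold change of -0.92 ± 0.172 (adjusted p = 0.00209). Pex3, the membrane anchor for Pex19, had a log2 fold change of -0.68 (adjusted p = 0.00557). Pex19, the carrier of new membrane proteins, stood at 139, 157, 132 and 186 CPM in WT and 111, 137, 166 and 175 CPM in CAPZ_KO. Its groups overlapped and its log2 fold change was -0.06 ± 0.174 (adjusted p = 0.802), turning to 0.55 (adjusted p = 0.0186) with library sizes alone.

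Pex11a and Pex11g take part in the elongation of peroxisomes before division. Pex11a, the form that PPARA is known to induce in rodents, stood at 17.5, 30.1, 29.5 and 71.2 CPM in WT and 9.51, 11.2, 10.0 and 22.7 CPM in CAPZ_KO. The female libraries, numbered 4, were the highest of each group, and CAPZ_KO 4 lay above WT 1, so the groups overlapped. Its log2 fold change was -1.48 ± 0.446 (adjusted p = 0.026), and it became -0.96 without WT 4. The call for Pex11a was lost without CAPZ_KO 1, CAPZ_KO 2 or CAPZ_KO 3 (adjusted p up to 0.0644). Pex11g had a log2 fold change of -0.60 (adjusted p = 0.0277), a call lost without WT 3, CAPZ_KO 1, CAPZ_KO 3 or CAPZ_KO 4 (adjusted p up to 0.0629).

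**Figure D3:**
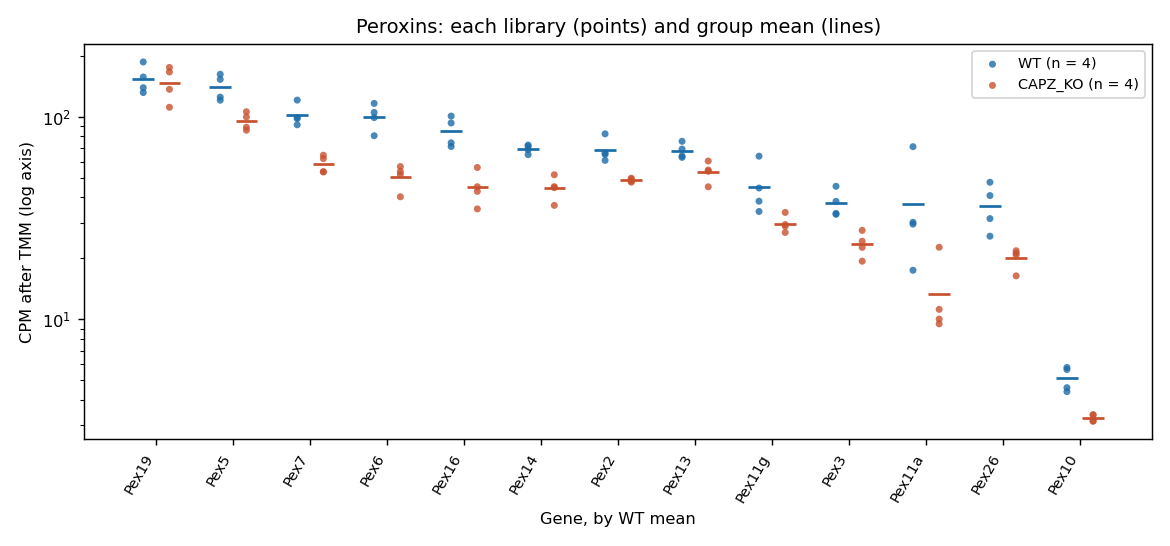
CPM after TMM (y axis, log scale) of 13 peroxins (x axis, ordered by WT mean) in each library (points), with lines at the group means. WT and CAPZ_KO points are apart for 11 of the 13 and overlap for Pex19 and Pex11a. With library sizes alone 0 peroxins were called lower, while 5.39% of all tested genes were lower and 59.0% higher.

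In the beta-oxidation pathway, which removes carbon pairs from very long and branched acyl chains, 5 of 6 members were lower. With library sizes alone Ehhadh (-0.72) and Acaa1b (-0.75) remained lower, while Hsd17b4 (-0.05, adjusted p = 0.756), Acaa1a (-0.15, adjusted p = 0.429) and Scp2 (-0.52, adjusted p = 0.211) did not pass. Ehhadh, the bifunctional enzyme of the L-specific route, stood at 387, 488, 281 and 604 CPM in WT and 189, 159, 162 and 188 CPM in CAPZ_KO. The groups were apart, with a log2 fold change of -1.34 ± 0.22 (adjusted p = 0.00103). Hsd17b4, the bifunctional enzyme of the D-specific route, stood at 486, 365, 439 and 451 CPM in WT and 270, 247, 253 and 317 CPM in CAPZ_KO, with a log2 fold change of -0.68 ± 0.145 (adjusted p = 0.00433). Acaa1a and Acaa1b are thiolases, which make the last cut of the cycle. Acaa1b stood at 754, 438, 415 and 820 CPM in WT and 206, 203, 307 and 224 CPM in CAPZ_KO (log2 fold change -1.37 ± 0.256, adjusted p = 0.00213). The log2 fold change of Acaa1a was -0.76 (adjusted p = 0.00611), but these genes are near-identical copies on chromosome 9 and the division of reads between them is uncertain.

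Scp2 encodes a thiolase for branched chains and a lipid carrier protein from the same gene. It stood at 2228, 1409, 3116 and 845 CPM in WT and 996, 577, 915 and 879 CPM in CAPZ_KO, and WT 4 lay below CAPZ_KO 1, CAPZ_KO 3 and CAPZ_KO 4. Its log2 fold change was -1.17 ± 0.361 (adjusted p = 0.0258), a call lost without WT 1, WT 3, CAPZ_KO 2 or CAPZ_KO 4 (adjusted p up to 0.07). Acox2, the oxidase for branched chains and bile acid precursors, stood at 244, 203, 324 and 145 CPM in WT and 195, 289, 216 and 328 CPM in CAPZ_KO. Its groups overlapped, with a log2 fold change of 0.17 ± 0.253 (adjusted p = 0.626). It was below 0 without WT 4 (-0.01) and called higher with library sizes alone (0.79, adjusted p = 0.012).

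The auxiliary enzymes that reduce or shift double bonds of unsaturated chains were lower in 3 of 3, but with library sizes alone only Pecr passed, with Decr2 at -0.49 (adjusted p = 0.0715) and Ech1 at -0.43 (adjusted p = 0.0552). Pecr, a trans-enoyl-CoA reductase, stood at 271, 228, 245 and 267 CPM in WT and 57.1, 93.4, 62.0 and 83.0 CPM in CAPZ_KO. That was a log2 fold change of -1.78 ± 0.175 (adjusted p = 6.81e-05), with the groups well apart. Decr2, a dienoyl-CoA reductase, stood at 267, 258, 224 and 427 CPM in WT and 110, 137, 129 and 172 CPM in CAPZ_KO (log2 fold change -1.10, adjusted p = 0.00305). Ech1, a dienoyl-CoA isomerase, stood at 466, 286, 314 and 407 CPM in WT and 149, 201, 150 and 210 CPM in CAPZ_KO (log2 fold change -1.05, adjusted p = 0.00218). Neither pair of groups overlapped.

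Alpha-oxidation takes a single carbon from phytanic acid, a branched fatty acid of plant origin that cannot enter beta-oxidation directly, and both of its members fell. Phyh, the hydroxylase that starts the route, stood at 2451, 1753, 2492 and 2056 CPM in WT and 553, 787, 551 and 778 CPM in CAPZ_KO. Its log2 fold change was -1.71 ± 0.195 (adjusted p = 0.000138). Hacl1, the lyase that follows, stood at 569, 328, 290 and 532 CPM in WT and 75.9, 79.7, 56.0 and 78.5 CPM in CAPZ_KO. At a log2 fold change of -2.57 ± 0.247 (adjusted p = 5.86e-05) it was the largest fall among the 37 tested members, leaving 16.9% of the WT mean.

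Agps and Gnpat carry out the first steps of ether lipid and plasmalogen synthesis, and were called in opposite directions after TMM, although with library sizes alone both were higher. Agps stood at 16.6, 17.3, 16.6 and 17.8 CPM in WT and 28.2, 18.3, 24.3 and 22.2 CPM in CAPZ_KO. Each CAPZ_KO library was above each WT library, with a log2 fold change of 0.44 ± 0.145 (adjusted p = 0.0323). The call was lost when any library but CAPZ_KO 2 was left out (adjusted p up to 0.117). Gnpat stood at 63.3, 64.7, 62.5 and 59.1 CPM in WT and 47.8, 46.7, 55.9 and 51.4 CPM in CAPZ_KO. Its log2 fold change was -0.31 ± 0.107 (adjusted p = 0.0415), lost without WT 2, WT 3, CAPZ_KO 1, CAPZ_KO 2 or CAPZ_KO 4 (adjusted p up to 0.084) and turning to 0.32 (adjusted p = 0.0309) with library sizes alone.

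The thioesterases and the carnitine transferase, which release shortened acyl chains for export, had 1 of 3 members lower, and 0 with library sizes alone (Acot8 -0.08, adjusted p = 0.683). Acot8, a broad acyl-CoA thioesterase, stood at 19.8, 14.6, 14.1 and 16.2 CPM in WT and 9.51, 8.67, 11.7 and 9.56 CPM in CAPZ_KO (log2 fold change -0.71 ± 0.159, adjusted p = 0.00539). Acot4, a thioesterase for dicarboxylic acyl chains, stood at 25.6, 51.7, 20.2 and 163 CPM in WT and 18.7, 19.3, 24.1 and 26.9 CPM in CAPZ_KO. WT 4 stood far above the other WT libraries, and the log2 fold change of -1.55 ± 0.623 did not pass the test (adjusted p = 0.0772). It was -0.56 without WT 4, and it passed without WT 1 or WT 3 (adjusted p = 0.0495 and 0.0301). Crot, the carnitine octanoyltransferase, stood at 1038, 822, 474 and 489 CPM in WT and 794, 437, 544 and 287 CPM in CAPZ_KO, with overlapping groups and a log2 fold change of -0.45 ± 0.341 (adjusted p = 0.313). It was -0.22 without WT 1, -0.26 without CAPZ_KO 4 and -0.77 without CAPZ_KO 1, not called in any of them.

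The oxidases and catalase were lower in 4 of 4, each by more than 2-fold. Uox, urate oxidase, stood at 2488, 2317, 4066 and 3299 CPM in WT and 512, 773, 544 and 849 CPM in CAPZ_KO (log2 fold change -2.18 ± 0.247, adjusted p = 0.000137). Hao1, the glycolate oxidase that makes glyoxylate, stood at 401, 270, 405 and 158 CPM in WT and 90.8, 67.0, 59.9 and 61.5 CPM in CAPZ_KO (log2 fold change -2.14 ± 0.292, adjusted p = 0.000384). Pipox oxidises pipecolic acid and sarcosine, and fell from 353 ± 55.4 to 122 ± 21.1 CPM (SD, n = 4; adjusted p = 0.000133). Cat, the catalase that breaks down the hydrogen peroxide of these oxidases, stood at 3943, 3230, 4064 and 3034 CPM in WT and 1469, 1440, 1442 and 1533 CPM in CAPZ_KO. Its CAPZ_KO libraries lay within 1440 to 1533 CPM, and the log2 fold change was -1.28 ± 0.154 (adjusted p = 0.00019). Abcd3, which brings long-chain acyl-CoA into the organelle, stood at 705, 523, 603 and 790 CPM in WT and 237, 195, 217 and 289 CPM in CAPZ_KO. The groups were apart, with a log2 fold change of -1.48 ± 0.181 (adjusted p = 0.000203).

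**Figure D4:**
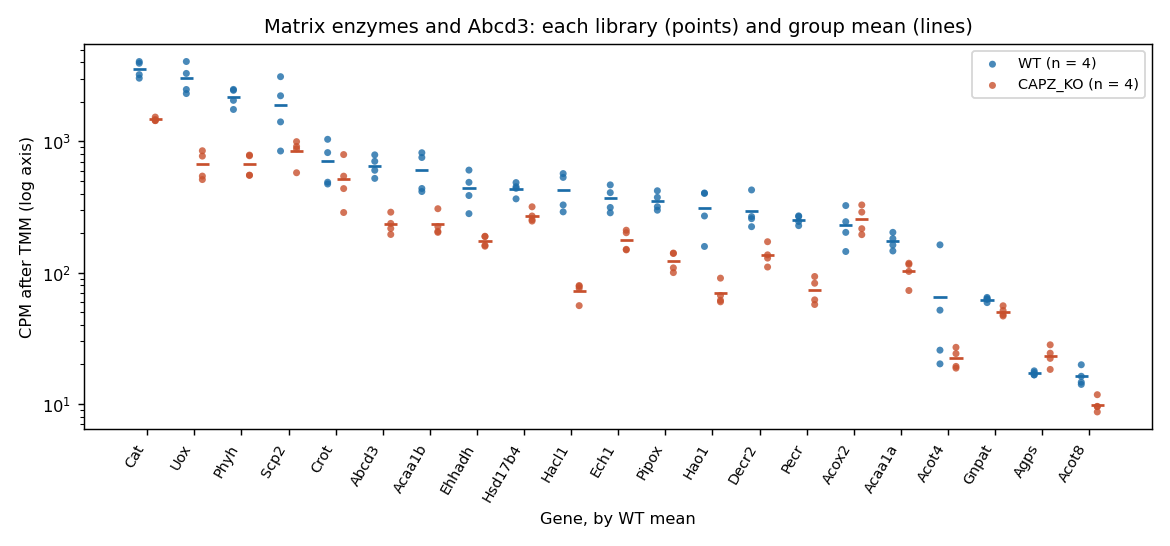
CPM after TMM (y axis, log scale) of each matrix enzyme and Abcd3 (x axis, ordered by WT mean) in each library (points), with lines at the group means. Hacl1 falls to 16.9% and Uox to 22.0% of the WT mean, Acox2, Crot, Scp2 and Acot4 overlap, and Agps lies higher in CAPZ_KO.

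Per kilobase of exon, 15 of the 20 enzymes stood in WT above the highest of the 13 tested peroxins reported singly. Cat at 1365 and Phyh at 1156 CPM per kb were the highest of the members reported singly in WT, and those peroxins lay between 1.55 (Pex10) and 47.9 (Pex16) CPM per kb. Agps, at 1.81 CPM per kb in WT, was the lowest of the enzymes. Acot8 at 8.10, Acot4 at 9.75, Gnpat at 17.4 and Acaa1a at 39.2 CPM per kb also lay within the range of those peroxins.

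Of other genes listed here as peroxisomal, in a list that does not include the members, 22 of 32 tested were lower and 2 higher, with a median log2 fold change of -0.92. Slc27a2, which activates very long fatty acids, fell from 1538 ± 347 to 335 ± 35.7 CPM (log2 fold change -2.20, adjusted p = 3.65e-05). Agxt, which removes the glyoxylate that Hao1 makes, had a log2 fold change of -2.10 (adjusted p = 5.82e-05), Paox, a polyamine oxidase, of -1.82 and Dhrs4, a carbonyl reductase, of -1.02. Far1, which makes the fatty alcohol that Agps uses, was higher at 0.76 (adjusted p = 0.0202). Mpv17, a listed gene whose protein is now assigned to mitochondria, was higher at 0.30 (adjusted p = 0.0399). Far1 stood at 3.86 ± 0.950 CPM in WT and 6.58 ± 0.995 CPM in CAPZ_KO (SD, n = 4). Of the proteins that divide peroxisomes together with mitochondria or mark them for autophagy, 1 of 7 was lower (Nbr1, an autophagy receptor, log2 fold change -0.48, adjusted p = 0.0182) and 1 higher (Sqstm1, another receptor, 0.72, adjusted p = 0.00814), with a median of -0.05. Of these 7, 0 were lower and 6 higher with library sizes alone, which gave 5.39% of all tested genes lower and 59.0% higher.

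The PPAR group of nuclear receptors and their partners had 5 of 8 lower and 1 higher, with a median log2 fold change of -0.74. Ppara fell from 349 ± 125 to 84.7 ± 32.4 CPM (SD, n = 4; log2 fold change -2.04 ± 0.325, adjusted p = 0.000919). Its partner Rxra had a log2 fold change of -0.78 (adjusted p = 0.00508), the coactivator Ppargc1b of -1.25 (adjusted p = 0.0159) and the hepatocyte factor Hnf4a of -0.71 (adjusted p = 0.0118), while Pparg, the fat cell receptor of the family, was higher at 0.78 (adjusted p = 0.0493). Known PPARA targets outside the peroxisome were lower in 12 of 20 and higher in 2, with a median of -0.77. Fabp1, a fatty acid carrier, had a log2 fold change of -3.79, Mgll, a lipase, of -1.79 and Cpt2, a carnitine transferase, of -1.12. Those higher were Cidec, a lipid droplet protein (3.57, adjusted p = 0.00807), and the hormone Fgf21 (2.70, adjusted p = 0.0437). Cidec was uneven within CAPZ_KO, at 5.50, 3.69, 30.6 and 30.2 CPM. Fgf21 was near the floor, with 27 reads over the WT libraries and 258 over the CAPZ_KO libraries, and its groups overlapped. Mitochondrial beta-oxidation, which shares substrates with the peroxisome, was lower in 13 of 14 and higher in 0, with a median log2 fold change of -0.95 and examples in Acaa2 (-1.34), Acadvl (-1.19), Etfa (-1.12) and Eci1 (-1.02). The falls in these lists stand beside the lower hepatocyte markers given above, whose part was not tested. With library sizes alone 6 of the 14 mitochondrial genes, 6 of the 20 targets and 10 of the 32 other peroxisomal proteins were lower, and 8 of those 32 and 4 of the 20 targets were higher. Of the 8 PPAR regulators, 1 was lower and 3 were higher with that scaling, which gave 5.39% of all tested genes lower and 59.0% higher.

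**Figure D5:**
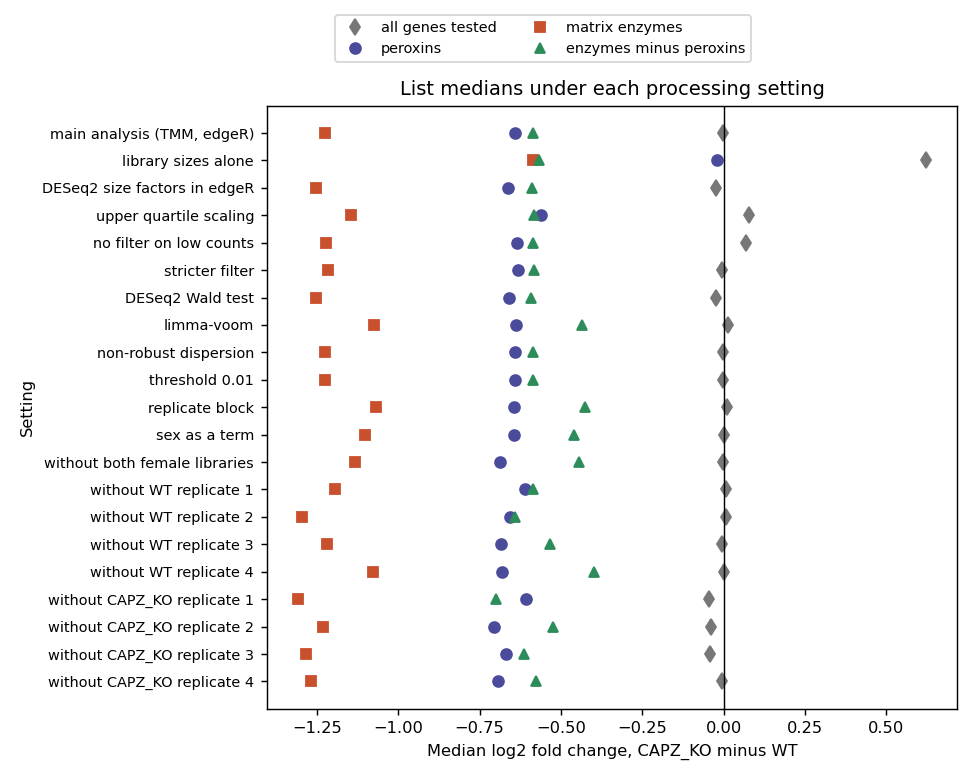
Median log2 fold change (x axis, CAPZ_KO minus WT) of the peroxins (circles), the matrix enzymes (squares) and all tested genes (diamonds) under each processing setting (y axis), with triangles for enzymes minus peroxins. With library sizes alone the medians move to -0.02 for peroxins, -0.59 for enzymes and 0.62 for all tested genes. In every setting the enzymes lie below the peroxins with a difference of -0.70 to -0.40.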

How the data were processed

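The authors deposited unscaled read counts, with gene symbols in rows and the 8 libraries in columns. Libraries were made from poly(A) RNA with a stranded kit, per the labels' protocols. The submitters' processing notes name STAR 2.5.3a, featureCounts, bcl2fastq, edgeR, R 3.3.1 and the build mm10 without saying what each was used for. No source used here gives the annotation, the strand setting or the treatment of reads that match several genes.

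From these counts, filterByExpr in edgeR 4.0.16 (R 4.3.3; minimum count 10, minimum total 15) kept 12985 genes. All 8 libraries were fitted with TMM scaling and the robust edgeR quasi-likelihood test, with no covariate, Benjamini-Hochberg adjustment over all 12985 genes and a threshold of 0.05. Every adjusted p is from that test unless DESeq2 1.42.0 or limma 3.58.1 is named, and every fold change after a ± sign carries its SE. The common biological coefficient of variation was 24.9%. Exon lengths came from GENCODE vM21 (GRCm38), which held 95.7% of the symbols, and promoters from RefSeq (GRCm38.p6); of 36 windows of the members, 29 run into the first bases of an annotated transcript. In simulated CAPZ_KO against WT counts for 12817 genes, 7 of 12620 unchanged genes were called, and 3, 27, 48 and 48 of 50 genes changed by 1.5, 2, 4 and 8-fold. Only these few genes were changed, as many up as down, with a spread taken from the trend over genes. In the data 41.4% of genes were called, so the simulation does not probe the zero that the scaling sets. No pair of libraries was a duplicate.

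The members and lists were chosen with earlier results of these data known. The rule named every member, with values per library for the 3 smallest p of each role and any member called higher; those of other members were added after their values were seen. Of other lists, up to 4 called genes per direction with the smallest p are named. A few genes, members among them, are not reported here by name; they are kept in the fits and in the counts and medians of lists. A planned look at protein targeting signals was not run, as no protein table was used here.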

Additional observations from a re-analysis of the deposited data

Results flagged for a closer look

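In 2 of 68 tests of a member within a group of 4 libraries, the most extreme library stood apart from the rest by more than the 95% critical value of Dixon's test, where chance gives about 1 in 20. Pex11a in CAPZ_KO 4, a female library, was 22.7 CPM, with the nearest CAPZ_KO library at 11.2 CPM. Hacl1 in CAPZ_KO 3 was 56.0 CPM, with the nearest at 75.9 CPM. The call of Hacl1 was kept without that library. That of Pex11a was kept without CAPZ_KO 4 but lost without any other CAPZ_KO library.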

How the results depend on the processing

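Between 27 and 33 members were lower in the 18 settings other than library sizes alone and a threshold of 0.01, and 26 members were lower in each of them. Library sizes alone gave 10 members lower and 4 higher (peroxins 0 and 1, enzymes 9 and 3), medians of -0.019 for peroxins and -0.59 for enzymes, and a Capzb difference of -0.10. With them, other peroxisomal proteins were 10 lower and 8 higher, division and pexophagy genes 0 and 6, PPAR regulators 1 and 3, PPARA targets 6 and 4, and mitochondrial beta-oxidation genes 6 lower. The same scaling gave all tested genes a median of 0.62, with 5.39% lower and 59.0% higher. The sign turned for Pex11g (0.026), Pex13 (0.28), Pex19 (0.55), Pex2 (0.13), Pex5 (0.070), Crot (0.21) and Gnpat (0.32). It also turned for Pex19 with upper quartile scaling (0.017), without WT 4 (0.038) and without CAPZ_KO 1 (0.023; range without each library -0.16 to 0.038), and for Acox2 without the female libraries (-0.15) and without WT 4 (-0.0094; range without each library -0.0094 to 0.38). Other peroxisomal proteins called higher numbered 1 with DESeq2 size factors, no filter, the replicate block or no female libraries, and 0 at a threshold of 0.01. With no filter, PPAR regulators called higher were 0 and PPARA targets 1, the latter also by DESeq2. At a threshold of 0.01, 0 members were higher, division and pexophagy genes lower were 0, PPAR regulators 2 lower and 0 higher, and PPARA targets 7 lower and 1 higher. The enzyme median was -1.07 by limma-voom, and the difference of medians -0.44 by limma-voom, -0.46 with sex as a term and -0.44 without the female libraries, where 0 members were higher.

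Whether the library numbers pair the groups is not given by the labels and cannot be settled with 4 libraries in each. Deviations of same-numbered libraries had r of 0.24, 0.01, 0.07 and 0.30. Libraries 1 and 4 of both groups and WT 3 correlated best with their own number, and WT 2, CAPZ_KO 2 and CAPZ_KO 3 did not. Both libraries numbered 4 were female. With the replicate block, 31 members were lower and 0 higher (Agps adjusted p = 0.0574, Gnpat 0.0759), the enzyme median was -1.07, the difference of medians -0.43, and 4 PPARA targets were higher.

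Leaving out each library gave 27 to 31 members lower and 0 to 1 higher, the higher one an enzyme (0 to 1 enzymes higher), an enzyme median of -1.31 to -1.08 and a difference of -0.70 to -0.40. Over these, 0 to 2 other peroxisomal proteins, 0 to 1 PPAR regulators and 1 to 4 PPARA targets were higher, and 0 to 1 division and pexophagy genes lower. The causes of these changes were not tested. Depth limits Pex10 (273 reads over the WT libraries) and Pex5l, whose difference was not detectable.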

Other observations

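WT 4, the female library, was the highest and WT 3 the lowest in 9 of 37 tested members (among them Pex3, Pex19, Ehhadh, Acaa1a, Acaa1b, Decr2, Acot4 and Agps), in 11 of 20 PPARA targets outside the peroxisome and in 9.56% of all tested genes. The opposite order held in 4 members (Acox2, Scp2, Hao1 and Cat), 0 of those targets and 5.46% of all genes. Acot3, a peroxisomal thioesterase, stood at 21.7, 74.1, 2.91 and 407 CPM in WT and at 3.97 to 7.20 CPM in CAPZ_KO. Cyp4a10, a fatty acid hydroxylase, stood at 499.8, 472, 43.8 and 771 CPM in WT and at 7.14 to 32.9 CPM in CAPZ_KO. These orders and genes were chosen after their values were seen.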
